A study of Rattus norvegicus with 2 samples.

Results

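The BCL-2 family genes considered here are 10 genes that set whether a cell keeps or opens its outer mitochondrial membrane, namely Bcl2, Bcl2l1, Mcl1, Bcl2a1, Bax, Bak1, Bcl2l11, Bid, Bik and Bmf. They were found as all probe sets whose platform symbol is one of these names, which gave 16 of the 31099 probe sets on the array. Of these, 15 carried 1 member symbol alone and covered 9 genes. The only Bax probe set was annotated to Bax together with LOC681314, so its signal cannot be assigned to Bax alone. The samples are natural killer (NK) cells sorted from the spleen of PVG.7b rats aged 8 to 12 weeks, as CD3-negative, NKR-P1A-positive cells. One population carried the inhibitory lectin-like receptor NKR-P1B without Ly49s3, and the other the activating receptor Ly49s3 without NKR-P1B. The study used 9 rats, sorted cells were above 90% pure per the labels, and each population was hybridised to 1 array. There are therefore no replicates, no p-value or replicate error can be given, and every difference describes these 2 arrays. The labels do not say whether RNA of several rats was pooled.

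The family has 3 functional branches. The survival proteins BCL-2, BCL-XL (encoded by Bcl2l1), MCL-1 and A1 (Bcl2a1) hold the pore-forming proteins BAX and BAK in check at mitochondria. BH3-only proteins such as BIM (Bcl2l11), BID, BIK and BMF share with the others only a short helix by which they occupy the survival proteins or activate BAX and BAK, so that cytochrome c leaks out and caspases are switched on. Lymphocytes depend on the balance between the branches, and NK cells in particular need MCL-1, which cytokine signals through the shared gamma chain help to maintain, while BIM is known for removing lymphocytes deprived of such signals.

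Signal is the MAS5 value of a probe set in arbitrary units. Values at or below 20.4, the pooled median of the 2 arrays without control probe sets, were set to that floor before a ratio was taken. A ratio with 1 array at the floor is a lower bound, written as "at least", and no ratio is given where both arrays were at or below it. Probe sets differ in how strongly they bind, so signals of different probe sets are not read as levels of their genes, and each is compared between the arrays. The exceptions are summed signals of cell type markers, in which the brightest probe sets weigh most, and the choice of the brightest probe set of a gene. Differences are log2 of NKR-P1B+ over Ly49s3+. As an error, each carries the SD by which probe sets of the same gene scatter around their common difference, written as same-gene SD. This SD was taken from genes whose dimmer probe set had a similar signal, while the brighter one could lie in a higher range. It was 0.32 under a signal of 50, 0.26 from 50 to 200, 0.18 from 200 to 1000 and 0.10 above 1000 (648, 919, 381 and 45 genes). Both probe sets of a gene read the same RNA, so this SD leaves out the variation between rats, sorts and arrays.

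The labels were checked first. The signal of the NKR-P1B gene Klrb1b was 1399 in NKR-P1B+ and 29.4 in Ly49s3+ cells, while the Ly49s3 gene was not checked because the annotation used names no probe set for it. All 8 NK cell markers on the array were above the floor, such as Klrb1a at 3740 and 3813 and Prf1 at 4023.5 and 3006 (NKR-P1B+ first). Markers of neutrophils, macrophages and B cells were mostly at or below the floor. By contrast, 6 of 7 dendritic cell markers and 6 of 8 T cell markers were above it on at least 1 array. All 4 neutrophil markers were at or below the floor on both arrays, as were 6 of 8 macrophage markers (Cd68 and Csf1r among them), 4 of 5 B cell markers and the T cell markers Cd3e and Cd3d. The summed signal of the macrophage markers was 430.0 in NKR-P1B+ cells and 212 in Ly49s3+ cells, most of it from Lyz2 (356 and 133), with Itgam at 29.9 and 27.0. That of the dendritic cell markers was 2889 and 2062, most of it from Itgax (2281 and 1716), with RT1-Da at 346 and 97.7 and Cd74 at 197 and 120.0. Batf3 ran the other way, at 4.2 and 83.2. The sum was 46.3 and 33.3 for B cells, with Blnk at 26.1 and 0.9 as the only marker above the floor. It was 2952 and 1765 for T cells, led by Cd8a (2151 and 767), which rat NK cells also carry. Lat had 594 and 526.5 and Cd5 had 92.7 and 40.8, whereas Trat1 (86.2 and 346) and Cd3g (22.3 and 42.9) were higher in Ly49s3+ cells. Erythroid Hbb had 276 and 153 and Hemgn 50.6 and 131, and platelet Pf4 had 30.9 and 26.6.

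Of the 16 member probe sets, 12 from 9 genes were above the floor on at least 1 array, 9 of them on both. The measured member probe sets split over both directions, with 5 nominally higher in NKR-P1B+ cells and 7 in Ly49s3+ cells, and their median log2 difference was -0.05. The same median over all 16465 measured probe sets was -0.03. Bcl2a1 and Bik were at least 1.5-fold higher in NKR-P1B+ cells, and 1 probe set of Bcl2l1 was at least 1.5-fold higher in Ly49s3+ cells. The other 9 were within 1.5-fold. Among all measured probe sets 4.95% were at least 1.5-fold higher in NKR-P1B+ cells and 6.38% in Ly49s3+ cells. With so few members, 2 and 1 of 12 are a description and no test was made.

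**Figure D1:**
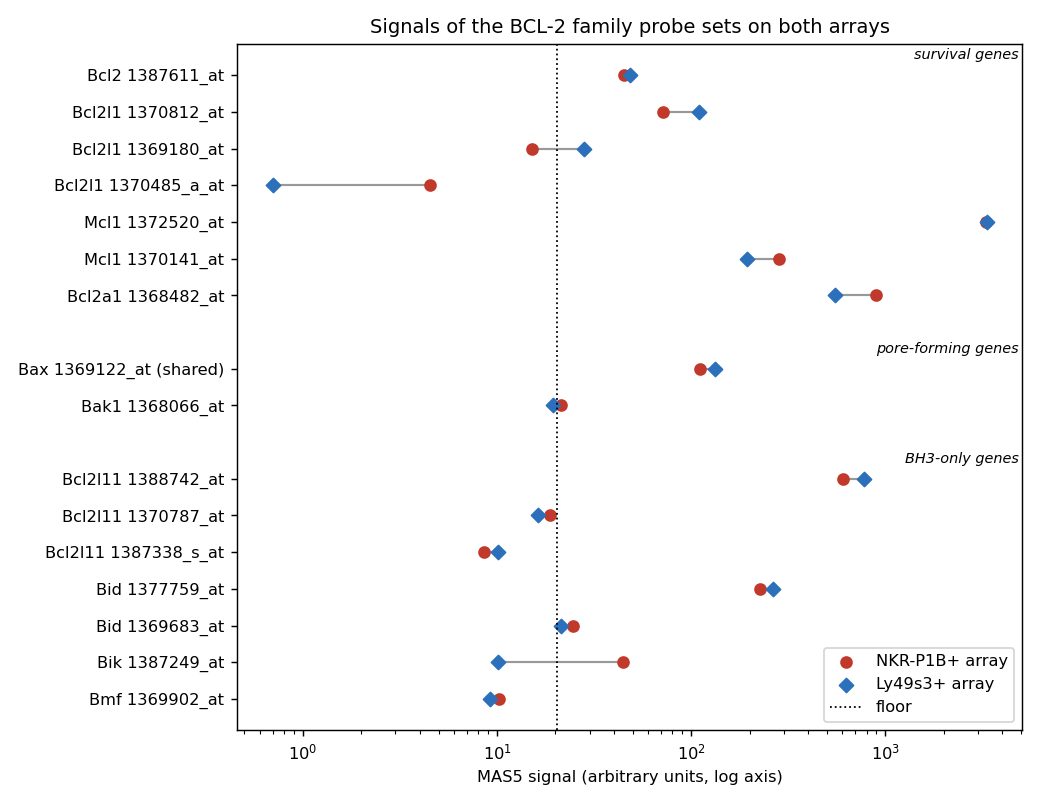
MAS5 signal (arbitrary units, log axis) of the 16 BCL-2 family probe sets in NKR-P1B+ (circles) and Ly49s3+ cells (diamonds), grouped by branch, with the floor of 20.4 dotted. The pairs of Bcl2a1 and Bik are apart toward NKR-P1B+ cells, those of Bcl2l1 above the floor toward Ly49s3+ cells, and the pair at 3312.5 and 3329 for Mcl1 overlaps.

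Bcl2a1 and Bcl2l1 are the survival genes that differed by at least 1.5-fold, in opposite directions, and the 250 bases upstream of their annotated start sites are shown for sequence context. They come from RefSeq on the GRCr8 build, 5' to 3' on the gene's strand, and capitals mark matches on either strand to 4 letter patterns, namely GGGNNNNNCC (NF-kB-like), TTCNNNGAA (STAT-like), TGACG (the core of a cAMP response element) and GGAAGT (ETS core). Bcl2l1 has 4 annotated starts, and the one farthest upstream is shown.
Bcl2a1, chr8:98596556-98596805, plus strand: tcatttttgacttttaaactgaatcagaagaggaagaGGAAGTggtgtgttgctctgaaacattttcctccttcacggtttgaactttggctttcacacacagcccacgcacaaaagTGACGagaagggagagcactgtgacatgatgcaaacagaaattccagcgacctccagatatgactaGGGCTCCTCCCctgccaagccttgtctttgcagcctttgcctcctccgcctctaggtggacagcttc
Bcl2l1, chr3:161764776-161765025, minus strand: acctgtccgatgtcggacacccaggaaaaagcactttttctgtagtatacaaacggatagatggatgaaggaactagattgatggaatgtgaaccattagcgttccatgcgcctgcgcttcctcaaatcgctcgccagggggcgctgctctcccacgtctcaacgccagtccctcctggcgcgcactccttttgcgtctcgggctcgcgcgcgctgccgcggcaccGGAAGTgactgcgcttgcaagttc
The Bcl2a1 stretch held 2 overlapping NF-kB-like matches at positions -67 to -57 from the start site, 1 TGACG match and 1 ETS core match at -213 to -208. The Bcl2l1 stretch shown held 1 ETS core match at -24 to -19 and no match to the other patterns. The stretches of its other starts differed from it. One (chr3:161763386-161763635) held 2 NF-kB-like matches at -188 to -179 and -132 to -123 and 2 STAT-like matches at -94 to -86 and -13 to -5. Another (chr3:161763251-161763500), which overlaps it, held the same STAT-like matches at -229 to -221 and -148 to -140, and the last (chr3:161763757-161764006) held no match. NF-kB-like letters thus lie upstream of both genes. Of 33469 RefSeq stretches of the same length, 42.3% held the NF-kB-like pattern, 7.67% the STAT-like one, 18.2% TGACG and 19.2% GGAAGT. These matches describe letters only. The arrays measured no binding, and the patterns were chosen with the sequences in view.

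Among the survival genes, Bcl2a1 had the largest difference toward NKR-P1B+ cells. It encodes A1, a short-lived survival protein of blood cells that NF-kB signals induce. Its probe set 1368482_at had 898 in NKR-P1B+ cells and 549 in Ly49s3+ cells. This is a 1.64-fold difference, log2 0.71 with a same-gene SD of 0.18. Bcl2a1 has no second probe set, so no second reading exists. At signals of 200 to 1000, 3.35% of all probe sets were at least 1.5-fold higher in NKR-P1B+ cells. Bcl2a1 is also expressed by myeloid and B cells. Most of their measured markers were nominally higher in NKR-P1B+ cells, with Batf3 as the clearest exception. Of 8 macrophage markers 2 were measured, with Lyz2 higher in NKR-P1B+ cells and Itgam nearly alike. Of 6 measured dendritic cell markers, 4 were nominally higher there, while Batf3 and the brightest RT1-Ba probe set (30.2 and 36.7) were lower. Of 5 B cell markers only Blnk was measured, and the others, such as Ms4a1 (8.3 and 14.7) and Cr2 (1.3 and 7.8), were at or below the floor on both arrays, where values have no order. Their part in the Bcl2a1 difference was not tested. In bulk samples fewer cells of a type and less RNA per cell cannot be told apart.

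The gene for MCL-1, the survival protein that NK cells need, was read by 2 probe sets with different results. Probe set 1372520_at had 3312.5 in NKR-P1B+ cells and 3329 in Ly49s3+ cells, a log2 difference of -0.01 with a same-gene SD of 0.10. Probe set 1370141_at had 284 and 194. It was thus 1.46-fold higher in NKR-P1B+ cells, log2 0.55 with a same-gene SD of 0.18, just under the 1.5-fold mark. The 2 Mcl1 probe sets disagreed by 0.56 on the log2 scale, against a median disagreement of 0.16 over 381 genes whose dimmer probe set lay in the same signal range. Only 10 of these genes (2.62%), Mcl1 included, had pairs at least as far apart. Mcl1 therefore has no single difference between these arrays.

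Bcl2l1 ran the other way. It encodes BCL-XL and, by alternative splicing, a short form that promotes death. Probe set 1370812_at had 72.0 in NKR-P1B+ cells and 109 in Ly49s3+ cells, a 1.52-fold difference toward the latter, log2 -0.60 with a same-gene SD of 0.26. Probe set 1369180_at had 15.2 and 28 and was at least 1.37-fold higher in Ly49s3+ cells. The third, 1370485_a_at, was below the floor on both, at 4.5 and 0.7. Both measured probe sets of Bcl2l1 thus had their higher signal in Ly49s3+ cells. The 1.5-fold mark was barely reached, and this count fell to 0 with the arrays centred on their median difference, where 1370812_at was at -0.58, and after quantile normalisation, also at -0.58.

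Bcl2 itself, the founding survival gene, had 45.3 in NKR-P1B+ cells and 48.3 in Ly49s3+ cells. Its log2 difference of -0.09 was smaller than the same-gene SD of 0.32 at this signal. Bcl2 was read by 1 probe set only, 1387611_at, so no second reading exists.

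The pore-forming genes differed little. Probe set 1369122_at, shared by Bax and LOC681314, had 111 in NKR-P1B+ cells and 132 in Ly49s3+ cells, log2 -0.25 with a same-gene SD of 0.26. Bak1, probe set 1368066_at, lay at the floor with 21.3 and 19.5, a bound of at least 1.04-fold. Neither difference exceeded its same-gene SD, and for Bak1 only a bound can be given.

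Of the BH3-only genes, Bcl2l11 had a moderately higher signal in Ly49s3+ cells, Bik a higher one in NKR-P1B+ cells, and Bid no single direction. Bcl2l11, which encodes BIM, had 608 in NKR-P1B+ cells and 775.5 in Ly49s3+ cells with probe set 1388742_at. The difference was 1.28-fold, log2 -0.35, about as far as 2 same-gene SDs of 0.18. Its other probe sets were below the floor on both arrays, 1370787_at at 18.8 and 16.2 and 1387338_s_at at 8.6 and 10.1, so the direction rests on 1 probe set.

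Bid is the BH3-only protein that caspase-8 and granzyme B cut into its active form. Probe set 1377759_at had 226 and 263, log2 -0.22 with a same-gene SD of 0.18. Probe set 1369683_at, near the floor, had 24.6 and 21.3, log2 0.21 with a same-gene SD of 0.32. The Bid probe sets thus pointed in opposite directions and disagreed by 0.43, and 31.8% of 648 genes with a dimmer probe set under 50 disagreed at least as much.

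Bik, a BH3-only protein of the endoplasmic reticulum, had the largest bound of the family. Its probe set 1387249_at had 44.7 in NKR-P1B+ cells and 10.1 in Ly49s3+ cells, at least 2.19-fold higher in the former. The size depends on the floor. At signals under 50, 6.22% of probe sets were at least 1.5-fold higher in NKR-P1B+ cells and 10.5% in Ly49s3+ cells, and the gene has no second probe set. Bmf, which responds to loss of attachment and to stress, was below the floor on both arrays at 10.2 and 9.2, and no ratio is given.

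**Figure D2:**
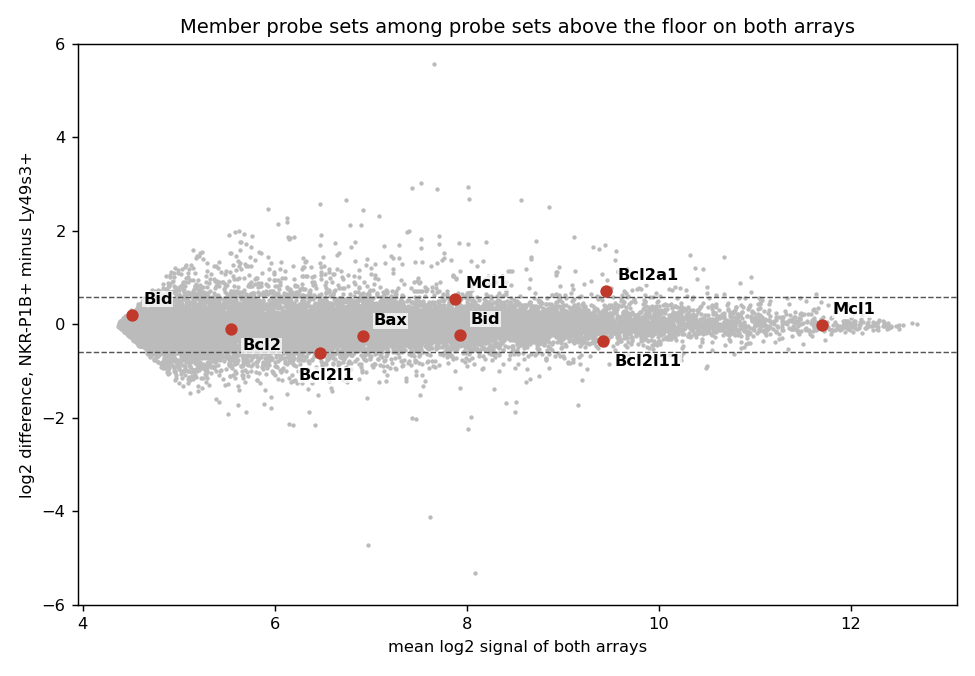
Log2 difference, NKR-P1B+ minus Ly49s3+, against mean log2 signal for the 14565 probe sets above the floor on both arrays (grey), with the 9 member probe sets in red and 1.5-fold dashed. Bcl2a1 lies above the upper line at 0.71, a Mcl1 probe set just below it at 0.55, Bcl2l1 just beyond the lower line at -0.60, and the others between.

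The member probe sets also differed from each other in their differences, a comparison that a constant factor between the arrays cannot change. Over the 9 probe sets above the floor on both arrays there are 36 pairs, and 12 of them were apart by more than 2 combined same-gene SDs. These 12 are described without a test, and each includes Bcl2a1 or a Mcl1 probe set, with 6 of them including Bcl2a1. The pairs reuse the same 9 values, and the share over pairs of all probe sets was not computed. The count is therefore no trait of the family. Differences of all 14565 probe sets above the floor on both arrays had an SD of 0.39, itself larger than any same-gene SD. Among the 12 is the pair of the Mcl1 probe sets with each other (gap 0.56, combined SD 0.20), which is no difference between genes. Other pairs rest on Mcl1 1370141_at, which the brighter Mcl1 probe set did not match. The signal of Bcl2a1 relative to Bcl2l11 was 2.09-fold higher in NKR-P1B+ cells, a gap of 1.06 on the log2 scale with a combined SD of 0.25. Relative to Bcl2l1 it was 2.48-fold higher (gap 1.31, combined SD 0.32), relative to the shared Bax probe set 1.95-fold (0.96, 0.32) and relative to Bid 1377759_at 1.91-fold (0.93, 0.25). The gap between Bcl2a1 and Mcl1 1370141_at was 0.16, within the combined SD of 0.25. The gap between Mcl1 1372520_at and Bcl2l11 was 0.34 with a combined SD of 0.20.

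How the arrays are scaled decides the sign of the smaller differences. Poly-A spikes, control transcripts added to the RNA, were 0.53 lower in NKR-P1B+ cells at the median of 17 probe sets (log2, range -0.97 to 0.21), while the 18 hybridisation controls had a median of 0.01. Scaling to the poly-A spikes moved the median of all probe sets above the floor from -0.02 to 0.49. It turned Bcl2, Mcl1 1372520_at, the shared Bax probe set, Bcl2l11 and Bid 1377759_at to the NKR-P1B+ side, at 0.44, 0.52, 0.28, 0.18 and 0.31. Under it Bcl2a1 was at 1.24, above that new median, and Bcl2l1 1370812_at at -0.07 and Bcl2l11 at 0.18 were below it. Of 13 member probe sets then measured, 3 (23.1%) were at least 1.5-fold higher in NKR-P1B+ cells and 0 in Ly49s3+ cells, against 35.7% of all probe sets in the former direction. Over all probe sets the split was 5939 and 167, against 815 and 1051 on the deposited scale. Over all genes 38% were at least 1.5-fold higher in NKR-P1B+ cells under poly-A scaling, and the median was 0.50. Directions in the text are relative to the deposited scale.

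**Figure D3:**
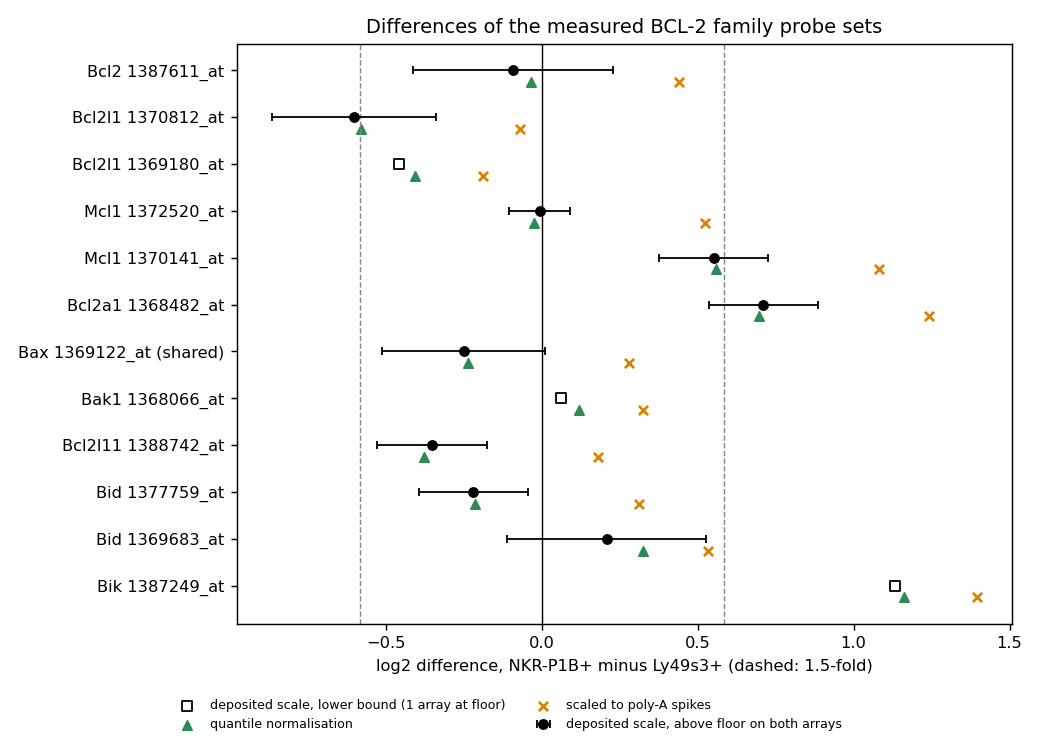
Log2 difference, NKR-P1B+ minus Ly49s3+, of the 12 measured member probe sets. Black circles carry the same-gene SD, open squares are lower bounds, triangles are after quantile normalisation and crosses after scaling to the poly-A spikes. Quantile values lie close to the deposited ones, and poly-A values lie to the right of them. Bcl2a1, Bik and Mcl1 1370141_at stay right of 0 throughout, as do Bak1 and Bid 1369683_at, which lie near the floor.

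Other genes of the family and of its pathway were taken as lists, with each gene read by the brightest of its probe sets on average. Of all 9114 measured genes, 5.11% were at least 1.5-fold higher in NKR-P1B+ cells and 5.73% in Ly49s3+ cells, and the median log2 difference was -0.02. Of 14 further family and BNIP genes on the array 11 were measured, with a median of -0.11, and 9 were nominally higher in Ly49s3+ cells, as were 4753 of all 9114 genes. Under poly-A scaling this median was 0.42, where that of all genes was 0.50. Bcl2l2, which encodes the survival protein BCL-W, was at least 1.72-fold higher in NKR-P1B+ cells (35 against 17.9), and its second probe set had 0.5 on both arrays. Bcl2l14 was at least 2.11-fold higher in Ly49s3+ cells (43.0 against 16.1), and Bnip3, a mitochondrial protein of hypoxia and mitophagy, 1.54-fold (62.7 against 40.6). These calls depended on the setting. Bcl2l2 was at 1.34-fold with log2 of the value plus 32 and at 1.31-fold as the mean of its probe sets, and was not measured with the floor at the 65th percentile. Bnip3 was at 1.30-fold with the added 32, 1.48-fold after quantile normalisation, 1.19-fold with that higher floor and 1.07-fold after poly-A scaling. Bcl2l14 stayed past 1.5-fold except with the higher floor, where it was not measured.

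The other 8 of these genes were within 1.5-fold. Bbc3, which encodes the BH3-only protein PUMA, had 307 in NKR-P1B+ cells and 272 in Ly49s3+ cells. Bad, another BH3-only gene, had 115 and 129. Becn1, an autophagy gene with a BH3 segment, had 707.5 and 721, and the mitophagy receptor gene Bnip3l had 878 and 898. Bnip2 had 630 and 764, Bnip1 59.4 and 84.1, Bcl2l12 71.3 and 76.8, and the BAX-like gene Bok 51.2 and 54.1. Bcl2l10, Bcl2l15 and the BH3-only gene Hrk were at or below the floor on both arrays.

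The machinery that acts after the pore opens was alike on both arrays to within 1.5-fold in all 14 measured genes, with a median of -0.02. Most genes on the arrays lie within that mark. Of all measured genes, 5.11% were at least 1.5-fold higher in NKR-P1B+ cells and 5.73% in Ly49s3+ cells. Apaf1, the scaffold that cytochrome c binds, had 382 and 384 in NKR-P1B+ and Ly49s3+ cells. The caspase it activates, Casp9, had 60.2 and 70.7. The caspase inhibitor gene Xiap had 250.1 and 249.8, and Diablo, which blocks such inhibitors, 324 and 275. The channel gene Vdac2, which binds BAK, had 915 and 936, and Vdac3 had 1382 and 1290. The dimmer probe set of Vdac1 was at least 1.5-fold higher in Ly49s3+ cells (30.7 against 16.7), and the brighter one had 128 and 140 (NKR-P1B+ first). Scaling to the poly-A spikes put 5 of the 14 genes (35.7%) at least 1.5-fold higher in NKR-P1B+ cells, near the 38% of all genes under that scaling, with a median of 0.51 against 0.50.

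Of 20 measured genes that control the members, 3 were at least 1.5-fold higher in NKR-P1B+ cells and 0 in Ly49s3+ cells, with a median of 0.10. Pim1, a cytokine-induced kinase that inactivates BAD, was 2.09-fold higher in NKR-P1B+ cells (130 against 62.0). Dynll2, the dynein light chain that tethers BMF, was 1.67-fold higher there (107 against 64.0), and its second probe set was 1.63-fold higher (61.0 against 37.4). Ddit3, which encodes the stress factor CHOP, just reached 1.5-fold (610 against 406), and with log2 of the value plus 32 only 1 of the 3 genes was past that mark. Foxo3, a transcription factor that drives Bcl2l11, was just under it at 1.47-fold (556 against 377.5).

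The nuclear factor genes were closer. Nfkb1 had 1698 in NKR-P1B+ cells and 1971 in Ly49s3+ cells, and Rela 647.5 and 558. Among genes that set the stability of MCL-1, the ubiquitin ligase gene Huwe1 had 407 and 432, the ligase subunit gene Fbxw7 had 99.4 and 103, and the deubiquitinase gene Usp9x had 403 and 358.5. Ywhaz, a binding protein of phosphorylated BAD, had 1484 and 1621. Poly-A scaling gave 11 of 20 regulator genes (55%) at least 1.5-fold higher in NKR-P1B+ cells, where all genes had 38%, with a median of 0.63 against 0.50.

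The cytokine input that maintains survival genes differed by less than 1.5-fold in all 15 measured genes, with a median of 0.06. This too is near the share of all genes, of which 5.11% and 5.73% were past the mark toward NKR-P1B+ and Ly49s3+ cells. The receptor chain genes Il2rb and Il2rg, which carry interleukin signals to NK cells, had 1935 and 2406 in NKR-P1B+ cells and 1447 and 1881 in Ly49s3+ cells. Jak1 had 2372 and 2351, and Jak3 had 112 on both. Stat5a had 180.1 and 198, and Stat5b 57.9 and 45.3. Nfil3, a factor of NK development, had 185 and 273, and Eomes, a factor of NK maturation, 1237 and 1820.5, both 1.47 to 1.48-fold higher in Ly49s3+ cells. The second probe set of Eomes was 1.65-fold higher there. Scaling to the poly-A spikes gave 7 of 16 genes then measured (43.8%) at least 1.5-fold higher in NKR-P1B+ cells, where all genes had 38%.

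Death receptor and granule genes, which feed into the family through BID, had 5 of 15 measured genes at least 1.5-fold higher in NKR-P1B+ cells and 0 in Ly49s3+ cells, with a median of 0.14. They were the receptor gene Tnfrsf25 (1108 against 194), the cytokine gene Tnf (87.5 against 8.7, a bound), the ligand genes Tnfsf10 (441 against 132.5) and Faslg (1304 against 436.5), and the granzyme gene Gzmb (3973 against 2549). All 5 encode a ligand, a receptor or a protease. The second Tnf probe set was at or below the floor on both arrays (0.8 and 1.4). Whether the ligands and the protease act on the NK cells themselves or on other cells was not measured. Genes that act between receptor and BID lay on both sides. Casp8, the protease that cuts BID, was 1.45-fold higher in Ly49s3+ cells (571 against 393), and 1.38-fold with its second probe set (272 against 197). The adaptor gene Fadd had 36.4 and 30.5 in NKR-P1B+ and Ly49s3+ cells, the inhibitor gene Cflar 131 and 119, and the receptor gene Fas 40.7 and 52.6. A dimmer Cflar probe set ran the other way, at least 1.35-fold higher in Ly49s3+ cells (27.5 against 16.5). Under poly-A scaling 10 of the 15 genes (66.7%) were at least 1.5-fold higher in NKR-P1B+ cells, where all genes had 38%.

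**Figure D4:**
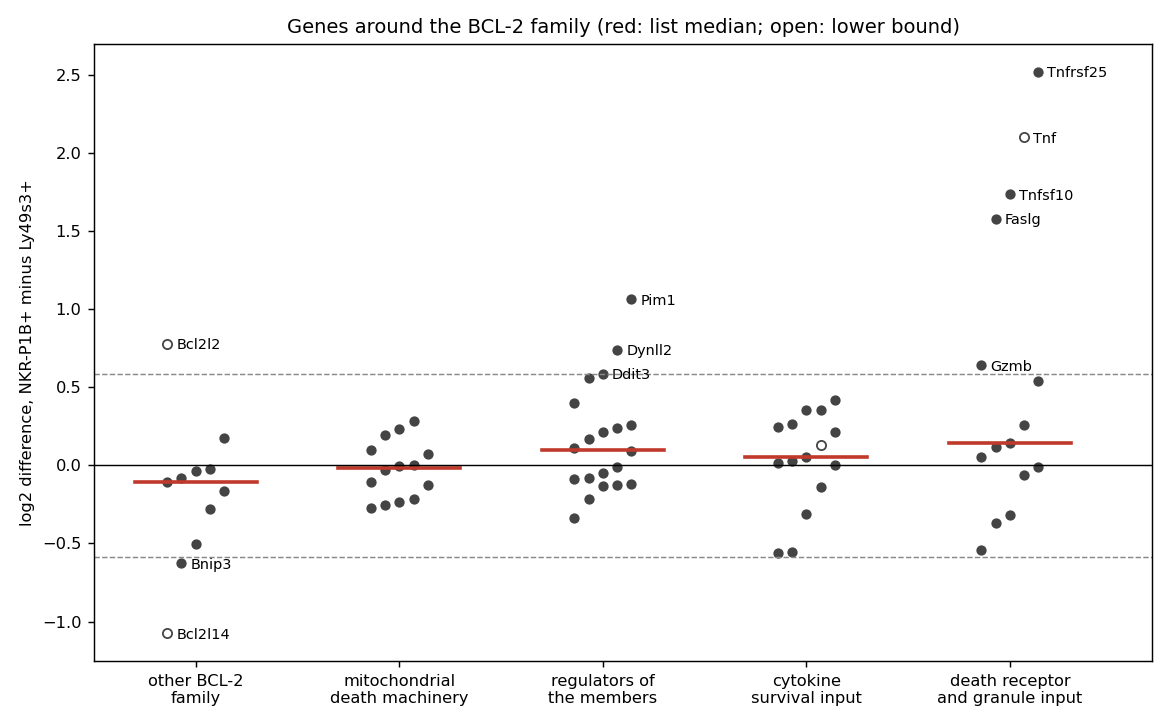
Log2 difference, NKR-P1B+ minus Ly49s3+, of each measured gene in the 5 lists around the BCL-2 family, with list medians in red, lower bounds open and 1.5-fold dashed. The mitochondrial death machinery and the cytokine input stay between the dashed lines, while 5 death receptor and granule genes lie above the upper one, up to Tnfrsf25 at 2.52.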

How the data were processed

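Per the labels, total RNA (3 ug) of each sorted population was made into biotinylated cRNA and hybridised to an Affymetrix rat array. The authors deposited 1 intensity value per probe set and array on a linear scale, made with MAS5 per the submitters' processing notes. The labels name neither its version nor a scaling target. Both arrays had the same 2% trimmed mean, 100.04, and thus a common scale. The medians were 19.6 and 21.3, with no centring of genes, and the factor applied before is unknown. The 3' to 5' signal ratio was 11.9 and 13.2 for actin and 2.84 and 2.77 for Gapdh (NKR-P1B+ and Ly49s3+). Actin signal was thus far stronger at the 3' end on both arrays. The bearing of this on dim, floored or disagreeing probe sets was not tested. The number of arrays limits the precision.

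Names came from the platform annotation, and RefSeq (GRCr8) gave the same symbol for the 10 member gene numbers. The floor was the 50th percentile over the 31042 non-control probe sets of both arrays; floored values were converted to log2 (Python 3.11.15, pandas 2.3.3, numpy 2.4.6), and the script was tested on simulated data. All member probe sets were named. Of the other lists the rule named genes at least 1.5-fold apart and the 2 brightest, and all genes of the family list. Further genes were named for their role after their values were seen. The signal ranges, the comparison of gaps between members with its mark of 2 combined SDs, the shares of genes with probe sets as far apart as those of Mcl1 and Bid, and the promoters shown were also chosen after the values were seen. The members and lists were chosen with earlier results of these data known. With 1 array per population no test was run. Other floors, added constants, scalings and ways to choose a probe set were tried.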

Additional observations from a re-analysis of the deposited data

How the results depend on the processing

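Of 67 member values recomputed under 6 other settings, 61 kept their sign. The 6 that changed it were 5 under poly-A scaling, given above, and Mcl1 1372520_at after centring on the median difference. The count of 61 is no measure of robustness, because most settings could hardly change a sign. A floor leaves values above it as they were, an added 32 keeps the order of the arrays, and centring shifted values by 0.02. Poly-A scaling turned 5 of the 7 member probe sets nominally higher in Ly49s3+ cells. Bcl2a1 stayed between 0.68 and 1.24, Bik between 0.87 and 2.15, and Bcl2l1 1370812_at between -0.60 and -0.07 in every setting that measured it. With a floor of 52.8, the 65th percentile, Bik dropped out, leaving 1 member probe set at least 1.5-fold higher in NKR-P1B+ cells. With a floor of 9.6, the 35th percentile, 2 were at least 1.5-fold higher in Ly49s3+ cells, both of Bcl2l1. Their number was 0 with log2 of the value plus 32, after centring on the median difference, after quantile normalisation and after poly-A scaling. Over all probe sets, the counts at least 1.5-fold higher in NKR-P1B+ and Ly49s3+ cells were 1591 and 2390 with the floor of 9.6, 427 and 411 with that of 52.8, 452 and 434 with the added 32, and 5939 and 167 after poly-A scaling. Over all genes, against 466 and 522, they were 772 and 1097, 277 and 246, 278 and 235, and 3480 and 94 (38% and 1.03% of 9151 genes). Under poly-A scaling the list medians were 0.42 for the other family genes, 0.63 for the regulators, 0.55 for the cytokine input and 0.67 for the death receptor input, with all genes at 0.50. No replicate could be left out, and no paired analysis was possible because each population was hybridised to 1 array. Members near the floor, Bak1, Bik and the dimmer probe sets, are limited by signal over background.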
